A study of Mus musculus with 18 samples.

Results

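The enzymes that add methyl groups to histones, remove them, or remove acetyl groups were followed in hippocampal RNA of mice that lack or overproduce the microRNAs miR-132 and miR-212. Members were chosen by name: every gene symbol that begins with Kdm, Setd, Ehmt, Suv, Prmt, Hdac or Mll followed by a digit. This gave 48 genes of 11738 symbols in the series. Of these, 13 were lysine demethylases (Kdm), 8 arginine methyltransferases (Prmt) and 9 histone deacetylases (Hdac). The others were 9 Setd, 2 Ehmt, 3 Suv and 4 Mll genes, from families known for lysine methyltransferases, though not every member need be one. The enzyme genes numbered 44 among 10541 genes in the table of the deletion. They were 43 among 10799 in that of tTA::miR132 and 28 among 4618 in that of tTA::miR212. Only 23 were in all 3 tables, and Hdac6, Kdm5c, Setd1b and Mll5 were in that of tTA::miR212 alone. Hdac6 and Kdm5c lie on chromosome X, of which the tables of the deletion and tTA::miR132 as analysed here list 0 genes. The rule also takes in genes whose product acts mainly on other proteins, such as Setd3, an actin methyltransferase.

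Polyadenylated RNA was measured by sequencing in C57BL/6 mice. In CaMKII-Cre::miR-132/212f/f mice, called the deletion here, Cre recombinase under a CaMKII promoter removes both microRNA genes; that promoter is known for excitatory forebrain neurons, so other cells of the hippocampus keep them. In tTA::miR132 and tTA::miR212 mice a tetracycline transactivator drives a transgene for one microRNA; the promoter of the transactivator is not given in the labels. Each line had nontransgenic controls of its own, which lack the driver as well, so effects of the driver and of the microRNA cannot be told apart. The labels give no age or sex. Replicates were described as pools made from the cDNA of 6 animals. Of 18 labelled samples, 3 in each of 6 groups, 14 libraries were used: 2 per group in the deletion and tTA::miR132 tables and 3 per group for tTA::miR212. The other 4 libraries are not analysed here. Libraries are called by the number in their column name, which ties none of them to a single labelled sample. No comparison shares controls with another. P-values measure the spread between these libraries.

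Acetyl groups on histone tails go with open, transcribed chromatin, and deacetylases of class I (Hdac1, Hdac2, Hdac3), class IIa (Hdac4, Hdac5, Hdac9), class IIb (Hdac6, Hdac10) and class IV (Hdac11) take them off. Methyl groups are read by their position: those on H3K4 mark promoters and enhancers, those on H3K9 mark silenced chromatin, H3K36 marks gene bodies and H4K20 condensed or dividing chromatin. In the hippocampus several of these enzymes, Hdac2, Hdac3, Ehmt2 and Mll1 among them, are known for their part in memory. miR-132 and miR-212 are induced by neuronal activity, and Kdm5a (Jarid1a), an H3K4 demethylase, is a reported target of miR-132.

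The mature microRNAs are shown because they share the seed that chooses their targets. Both are from RefSeq (build GRCm38.p6, chromosome 11, plus strand), miR-132-3p at 75173723 to 75173744 and miR-212-3p at 75173443 to 75173464. Capitals mark the seed, bases 2 to 8.
miR-132-3p: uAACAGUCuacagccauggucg
miR-212-3p: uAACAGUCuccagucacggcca
The seed AACAGUC is the same in both. Over their 22 bases they differ at 5 positions, the first of them at base 10, beyond the seed.

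The 7-base match to this seed, GACTGTT, was searched on the sense strand of the longest annotated 3' UTR of each gene (GENCODE vM1, build mm9). It was found in 9 of the 48 enzyme genes (18.8%), against 1479 of the 11174 tested genes that have an annotated UTR (13.2%), with median UTR lengths of 1296 and 1292 bases. The longer match GACTGTTA was in 3 of the 48, Hdac3, Setd5 and Setd7 (6.25%, against 2.83%). The 7-base match is a part of the longer one. All 3 Kdm5 members hold a match, and the sites of these H3K4 demethylases and of the 2 Setd genes with the longer match are shown with the match in capitals.
Kdm5a, first site, chr6:120390336-120390362, plus strand: tctgactactGACTGTTctatagatta
Kdm5a, second site, chr6:120391631-120391657, plus strand: actgaaaggtGACTGTTttgagtaatt
Kdm5b, chr1:136528181-136528207, plus strand: ttaaaatgctGACTGTTttttgcaggg
Kdm5c, chrX:148708968-148708994, plus strand: aaaaagtttaGACTGTTtttacaaccc
Setd5, chr6:113102895-113102921, plus strand: ctttgtgtgtGACTGTTacaaattttc
Setd7, chr3:51324455-51324481, minus strand: cctagggccaGACTGTTatttatagac
The other genes with a match were Hdac3, Kdm1b, Prmt2 and Suv420h1. A match is a string of letters, not a shown binding site.

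Total counts were 8190899 to 9702801 per library in the deletion table and 8301385 to 14772907 in that of tTA::miR132. For tTA::miR212 they were 1299369 to 1544923 with 1 transcript kept per gene. Deletion library 1 stood apart: 9.93% of all genes were at 0 in it, against 0.693% to 1.14% in the other 3 libraries. Among the enzymes Hdac1, Suv39h2 and Suv420h2 were at 0 there, and over all genes its correlation with deletion library 2 was 0.63. Control library 2 of the tTA::miR132 table had 4.49% of genes at 0, Setd4 among them. In the deletion and tTA::miR132 tables the enzyme genes differed less between libraries of a group than all genes did: the median absolute log2 difference was 0.50 against 0.91 between the deletion libraries, and 0.44 against 0.66 between the tTA::miR132 controls. The median enzyme gene had 440 to 1011 counts per library in these tables, and the median of all genes 342 to 635. In the table of tTA::miR212 they had 138.5 to 166 and 161 to 195. In that table the same differences were 0.09 to 0.17 for enzyme genes and 0.11 to 0.16 for all genes, and neither set was lower in every pair of libraries.

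Choroid plexus markers were lower in the deletion: the summed level of the 7 measured of 8 was 510 and 1755 CPM (counts per 1000000 counts of the library) against 4478 and 4992 in controls. Otx2, Clic6, Aqp1 and Folr1 were at 0 in at least 1 library. Their sum also varied within groups of tTA::miR212 (2 of 8 measured): 282 to 840 CPM in controls and 47.9 to 852 in transgenic libraries. In tTA::miR132 it was 4170 and 2937 CPM against 5285 and 3863. All 10 hippocampal neuron markers were measured in each table, at 2583 to 3566 CPM in sum in the 2-library tables and 6191 to 6529 for tTA::miR212, with Prox1 at 0 in a library of the deletion table. In the deletion their sum was 3069 and 3236 CPM against 2583 and 2901, and that of 4 endothelial markers 118 to 123 against 60.2 to 91.9 (Cldn5 at 0 in a library). In tTA::miR132 the sum of 4 of 5 oligodendrocyte markers was 4108 to 4233 CPM against 3392 to 3580, and that of 3 of 4 ependymal markers 23.0 to 27.9 against 37.5 to 41.0 (Tmem212 at 0 in a library). The 3 measured of 5 microglial markers summed to 311 to 366 CPM in tTA::miR212 against 282 to 307. The sums of inhibitory neuron and of astrocyte markers overlapped their controls in every comparison. So did the oligodendrocyte sum in the deletion, at 3333 and 5007 CPM against 4490 and 4766. Of all single genes, 32.3% lay apart from controls in the deletion, 33.1% in tTA::miR132 and 11.4% in tTA::miR212. The part of these cell types in the values below was not tested. In bulk RNA, fewer cells of a type and less RNA per cell cannot be told apart.

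Levels in control hippocampus were set on a scale that allows genes to be compared, CPM per kilobase of exon. Only genes with a matched length are ranked, which leaves out Ehmt2 for tTA::miR212. Hdac11, the only class IV deacetylase, had the highest control mean in each table: 100 ± 16.2 (SD, n = 2) for the deletion, 74.0 ± 15.0 (n = 2) for tTA::miR132 and 119 ± 2.31 (n = 3) for tTA::miR212. In the deletion's controls the next were Hdac3 (71.3 ± 6.20), Prmt2, an arginine methyltransferase and coactivator (71.2 ± 3.31), Hdac2 (66.6 ± 2.08) and Setd3 (52.8 ± 17.1). The libraries of Hdac3 overlapped those of both Prmt2 and Hdac2, while those of Prmt2 (73.5 and 68.9) lay just above those of Hdac2 (65.1 and 68.1). Hdac11 in its lower library (89.0) stood above the higher library of Hdac3 (75.7). In the controls of tTA::miR132 the same 5 genes led in the same order, and there Hdac11 and Hdac3 (73.4 ± 12.5) were not separated. The place of Hdac3 in both tables rests on its matched transcript of 1432 bases. Its transcript for tTA::miR212 has 2004 bases, and with that length its levels would be lower in both.

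In the controls of tTA::miR212 the class IIa deacetylase Hdac5 (76.3 ± 2.36 CPM per kilobase) came after Hdac11, then the H3K4 methyltransferase Setd7 (54.9 ± 1.60). Both were clear of their ranked neighbours in all 3 libraries. Ehmt2, at 305, 299 and 296 CPM in these controls, had no matched length, so its place among them is not known. The arginine methyltransferase Prmt8, known for its restriction to brain, followed with 42.4 ± 3.07, above Prmt2 (38.2 ± 1.94) with no overlap between their libraries. The lowest control means were those of the demethylases Kdm4a (1.40 ± 0.208) and Kdm2b (1.93 ± 0.100) in the deletion's controls, of Hdac10 (1.92 ± 0.664) in those of tTA::miR132, and of Kdm5a (7.19 ± 1.05) and the H3K4 methyltransferase Setd1b (9.69 ± 1.09) in those of tTA::miR212. Tables were counted on different gene models, so these levels are not compared across tables. First strands were made with oligo(dT), which can leave the far 5' part of long transcripts with fewer reads.

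**Figure D1:**
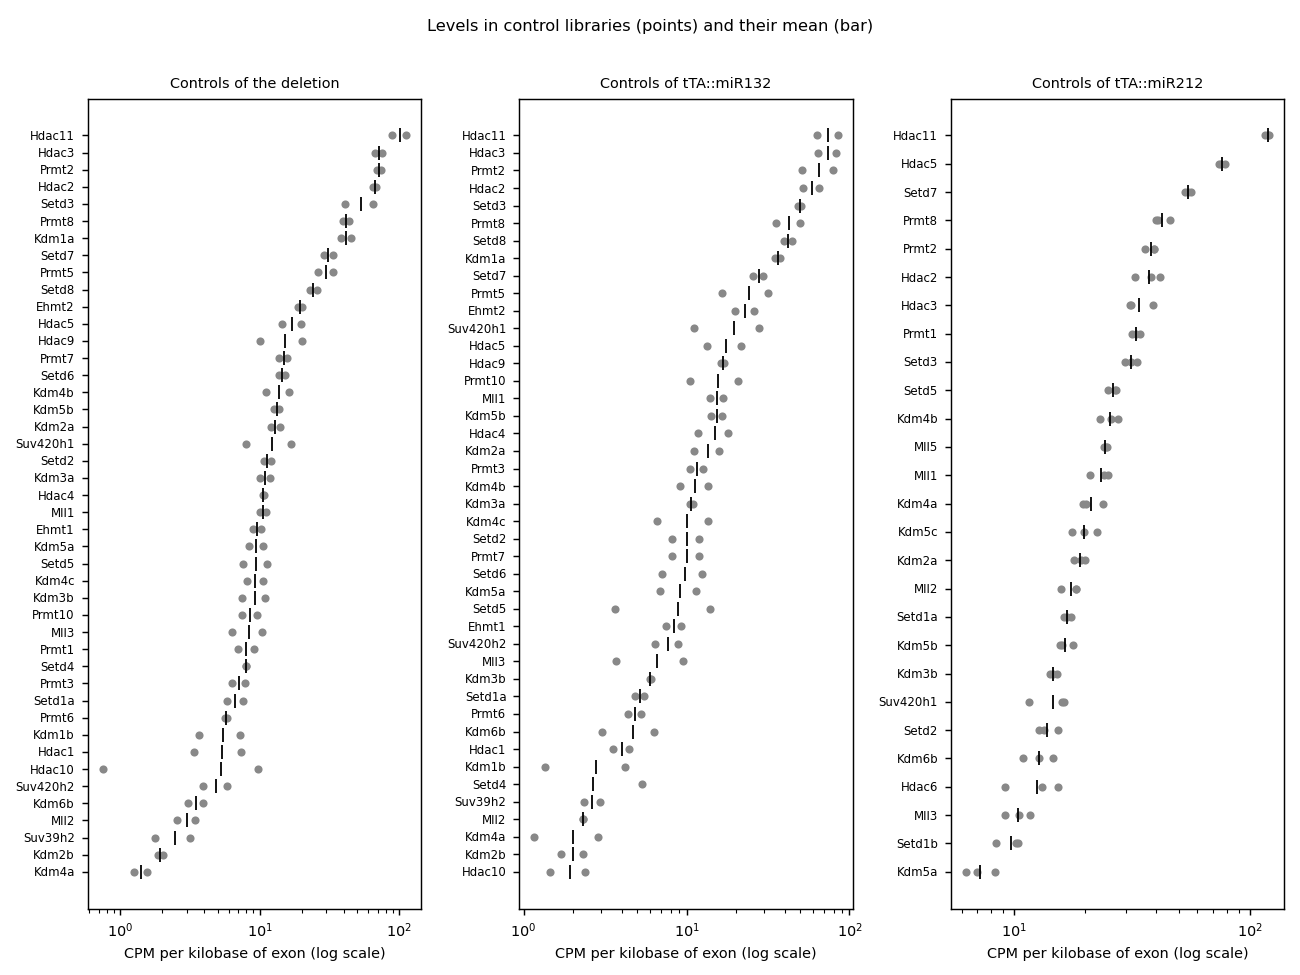
Level of each enzyme gene with a matched length in the control libraries of the 3 tables, in CPM per kilobase of exon on a log axis. Points are libraries and bars are means, and Ehmt2 of tTA::miR212 is not drawn. Hdac11 is at the top of every panel, at 100, 74.0 and 119, and the library of Setd4 at 0 cannot be drawn on the log axis.

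The first comparison asked which enzyme transcripts differ when both microRNAs are deleted. None passed the test: edgeR's quasi-likelihood test called 0 of 44 enzyme genes at an adjusted p under 0.05, as it did of all 10487 genes tested (0%). At an unadjusted p under 0.05 there were 2 of 44, both higher in the deletion, where the background over all genes was 0.839%. DESeq2 called 0 of the 44 with 4 under an unadjusted 0.05, and limma-voom called 0 with 2. Of the 44, 27 have a q-value under 0.05 in the authors' deposited table, where the background is 54.3% of all genes. The median log2 fold change was -0.12 over the enzyme genes and -0.03 over all genes, and 18 of 44 lay above 0 (40.9%, against 47.9%). Without control library 2 the enzyme median was -0.015 with 22 of 44 above 0, and without deletion library 1 it was -0.045.

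The 2 genes with the smallest p write opposite marks. Ehmt2 (G9a; chromosome 17, 35035918 to 35050992, plus strand, mm9) puts methyl groups on H3K9 together with Ehmt1. Deletion libraries 1 and 2 gave it 1584 and 1352 counts, and the control libraries 759 and 615. That is 154 ± 20.5 CPM (SD, n = 2) against 77.8 ± 3.81 (n = 2), with both deletion libraries above both controls. The log2 fold change was 1.01 (SE 0.31), with an unadjusted p of 0.017 and an adjusted p of 0.999 by edgeR's quasi-likelihood test. Without deletion library 1 it was 0.83 (adjusted p = 0.516). Its partner Ehmt1 had 36.6 and 45.0 CPM against 43.9 and 50.4, and the groups overlap.

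Mll1 (chromosome 9, 44611437 to 44689357, minus strand), an H3K4 methyltransferase needed in neurons for long-term memory, had 290 and 276 CPM in the deletion against 182 and 164 in controls. The groups do not overlap, and the libraries within each group are close. Its log2 fold change was 0.74 (SE 0.24) with an unadjusted p of 0.0206 and an adjusted p of 0.999 by edgeR, or 0.66 without deletion library 1. Its relatives differed: Mll2 (now named Kmt2d), which acts at enhancers, had 129 and 57.2 CPM against 50.7 and 67.4, and Mll3 (now Kmt2c) 104 and 115 against 107 and 175. Both overlap their controls. Setd1a and Setd7, the other measured H3K4 methyltransferases, lay below both controls in both deletion libraries, at 29.2 and 26.1 against 34.2 and 45.1 CPM for Setd1a.

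Setd8 (now Kmt5a), which places the single methyl group on H4K20, had 107 and 88.5 CPM against 70.1 and 62.6. Both deletion libraries were above both controls, with a log2 fold change of 0.59 (SE 0.36) and an adjusted p of 0.999 by edgeR, or 0.40 without deletion library 1. Suv420h1 (now Kmt5b), which extends that methylation, had 77.1 and 73.5 CPM between control values of 48.1 and 101. Setd2, which trimethylates H3K36, had 22.8 and 124 CPM around controls of 99.7 and 89.3, so its deletion libraries disagree by more than any difference between the groups.

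Of the arginine methyltransferases, Prmt1, Prmt6 and Prmt8 lay above both controls and Prmt2 and Prmt5 below. Prmt6, which methylates arginine on histone H3 near H3K4, had 45.3 and 18.1 CPM against 13.8 and 14.3. Its log2 fold change of 1.22 (SE 0.87; adjusted p = 0.999 by edgeR) was 0.36 without deletion library 1. Prmt3, which acts on a ribosomal protein, had 75.6 and 12.7 CPM against 15.9 and 19.7: library 1 lay above both controls and library 2 below both. Its log2 fold change of 1.36 (SE 0.96; adjusted p = 0.999 by edgeR) was -0.50 without library 1 and 2.15 without library 2. For both genes the size of the difference rests on that 1 library.

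Among the demethylases Kdm2b, which acts on H3K36 and recruits a Polycomb complex, had 59.6 and 14.7 CPM against 9.65 and 10.4. The groups do not overlap, yet the log2 fold change of 1.94 (SE 0.98; adjusted p = 0.999 by edgeR) was 0.55 without deletion library 1. Kdm3b, an H3K9 demethylase, was lower in both deletion libraries, 35.9 and 40.4 CPM against 53.0 and 77.3. Its log2 fold change was -0.75 (SE 0.48; adjusted p = 0.999 by edgeR), and -0.70 without library 1, but -0.45 without control library 2. Kdm5a, the reported target, had 80.8 and 142 CPM against 116 and 91.1, on both sides of the controls. Its log2 fold change was 0.12 (SE 0.38; adjusted p = 0.999 by edgeR), 0.45 without deletion library 1 and -0.29 without library 2.

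The class I deacetylases did not move together. Hdac3, the catalytic unit of the NCoR and SMRT corepressor complexes, had 150 and 125 CPM against 95.8 and 108, above both controls, with a log2 fold change of 0.46 (SE 0.30; adjusted p = 0.999 by edgeR), or 0.28 without library 1. Hdac2 had 126 and 87.9 CPM against 131 and 137, and Hdac1 had 0 and 5.77 against 14.8 and 6.84. Both lay below their controls, Hdac1 on 0 and 56 counts against 140 and 56. Library 2 of each group thus held the same Hdac1 count and differed in CPM only by library size. Hdac4, a class IIa enzyme that shuttles between nucleus and cytoplasm, was lower and tight within groups, at 27.2 and 25.6 CPM against 41.9 and 41.8. Hdac11, at 182 and 275 CPM against 297 and 236, overlapped its controls.

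In all, 8 enzyme genes lay above both controls in both deletion libraries (18.2%, background 14.3%) and 10 lay below (22.7%, background 18%). With TMM library sizes 8 lay below, as Hdac2 and Prmt5 then overlap. The 44 genes summed to 3138 to 3204 CPM in the deletion and 3042 to 3151 in controls, which overlap. The 3 H3K9 methyltransferases summed to 200 to 205 CPM against 133 to 138, but of them Ehmt2 alone had a log2 fold change above 0, and Ehmt1 and Suv39h2 lay below 0 (median -0.19).

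**Figure D2:**
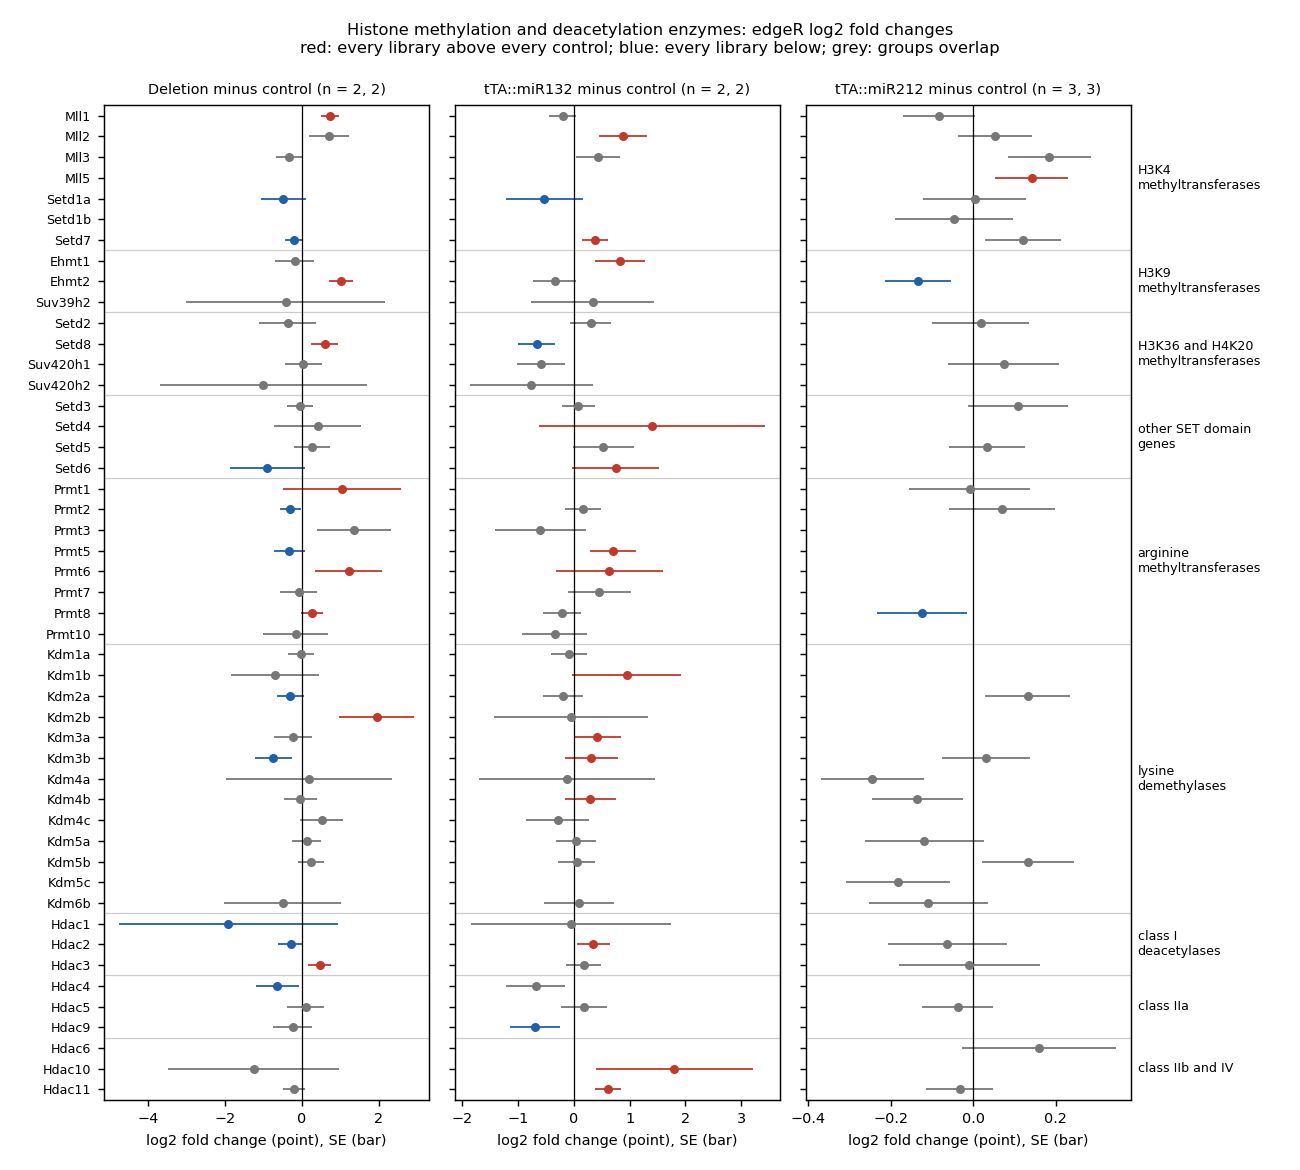
Log2 fold change of each measured enzyme gene against its controls in the 3 comparisons, with the SE as bars and genes ordered by role; the 3 horizontal axes differ in range. Red and blue points mark groups that do not overlap, 8 and 10 genes in the deletion panel, 14 and 3 in that of tTA::miR132 and 1 and 2 in that of tTA::miR212.

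The second comparison asked the same of mice with a miR-132 transgene. Again none of the 43 enzyme genes passed edgeR's test at an adjusted p under 0.05, nor did any of all 10734 genes (0%). At an unadjusted p under 0.05 there was 1 of 43 (2.33%), below the background of 2.82%. DESeq2 called 0 of the 43 with 5 under an unadjusted 0.05, and limma-voom called 0 with 2. Of the 43, 24 have a q-value under 0.05 in the authors' deposited table, against a background of 53.1%. The median log2 fold change was 0.17 over the enzyme genes against -0.0024 over all genes, and 26 of 43 lay above 0 (60.5%, against 49.9%). Without transgenic library 2 the median was 0.03. The groups did not overlap for 14 higher genes (32.6%, background 18.8%) and for 3 lower genes (6.98%, background 14.3%), or 13 and 3 with TMM library sizes, where Kdm4b overlaps. All enzyme genes together summed to 3385 and 3484 CPM in the transgenic libraries against 3085 and 3009 in controls, with no overlap.

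Hdac11 (chromosome 6, 91106808 to 91124677, plus strand, mm9) had the smallest p. Transgenic libraries 1 and 2 gave it 4615 and 2672 counts, and the control libraries 2224 and 1396, which is 309 ± 5.53 CPM (SD, n = 2) against 196 ± 39.9 (n = 2). Both transgenic libraries were above both controls. The log2 fold change was 0.61 (SE 0.23), with an unadjusted p of 0.0209 and an adjusted p of 0.997 by edgeR, or 0.45 without control library 2. Hdac11 is known to be abundant in oligodendrocytes as well as in neurons, and the oligodendrocyte markers given above were also higher in this group. The part of those cells in this value was not tested.

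By class, the deacetylases were as follows, with no test of the sums. Class I (Hdac1, Hdac2, Hdac3) summed to 283 and 287 CPM against 232 and 230, led by Hdac2 with 150 and 159 against 105 and 130. Class IIa (Hdac4, Hdac5, Hdac9) summed to 166 and 158 CPM against 200 and 197. Neither pair of sums overlaps, but in each class a single member, Hdac2 or Hdac9, lay apart from its controls. In class IIa, Hdac9 had 36.2 and 57.7 CPM against 71.9 and 75.2, a log2 fold change of -0.70 (SE 0.45; adjusted p = 0.997 by edgeR), below both controls; without transgenic library 1 it was -0.40 and without library 2 -1.06. Hdac4 overlapped its controls at 49.8 and 25.3 against 46.3 and 71.0, and so did Hdac5 at 79.9 and 74.8 against 81.6 and 51.0. Hdac10, a class IIb enzyme known as a polyamine deacetylase, had 12.1 and 21.1 CPM against 5.76 and 3.49, on 29 to 185 counts per library.

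Of the lysine methyltransferases Mll2 had 103 and 72.3 CPM against 46.0 and 46.1, above both controls, with a log2 fold change of 0.88 (SE 0.42; adjusted p = 0.997 by edgeR). Setd7, which adds a single methyl group to H3K4 and carries the longer seed match, had 311 and 239 CPM against 219 and 191, also above both controls, with a log2 fold change of 0.38 (SE 0.24; adjusted p = 0.997), or 0.17 without transgenic library 1. Ehmt1 had 84.9 and 64.6 CPM against 45.6 and 36.6, a log2 fold change of 0.82 (SE 0.45; adjusted p = 0.997 by edgeR). Its groups do not overlap, whereas its partner Ehmt2 had 58.0 and 92.3 against 80.0 and 105. Mll1, at 203 and 250 CPM against 229 and 275, overlapped its controls too.

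Setd8 was among the 3 genes below both controls, at 77.6 and 71.0 CPM against 122 and 108, with a log2 fold change of -0.67 (SE 0.34; adjusted p = 0.997 by edgeR), or -0.72 without control library 2. Hdac9 and Setd1a were the others. Suv420h1 had 87.1 and 77.1 CPM between controls of 67.5 and 170; its log2 fold change of -0.58 (SE 0.43; adjusted p = 0.997 by edgeR) was 0.27 without control library 2 and -1.11 without control library 1.

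Prmt5, the main enzyme of symmetric arginine methylation, had 126 and 91.5 CPM against 85.7 and 44.6, with a log2 fold change of 0.70 (SE 0.41; adjusted p = 0.997 by edgeR). The groups do not overlap, and the value was 0.33 without control library 2, 1.22 without control library 1 and 0.45 without transgenic library 1. No demethylase lay below its controls in both libraries. Kdm1b, Kdm3a, Kdm3b and Kdm4b lay above, of which Kdm3a, an H3K9 demethylase, had 68.4 and 75.1 CPM against 50.8 and 53.0. Kdm5a had 104 and 107 CPM, between controls of 125 and 75.2, and a log2 fold change of 0.04 (SE 0.35; adjusted p = 0.999 by edgeR), or -0.26 without control library 2 and 0.42 without control library 1.

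**Figure D3:**
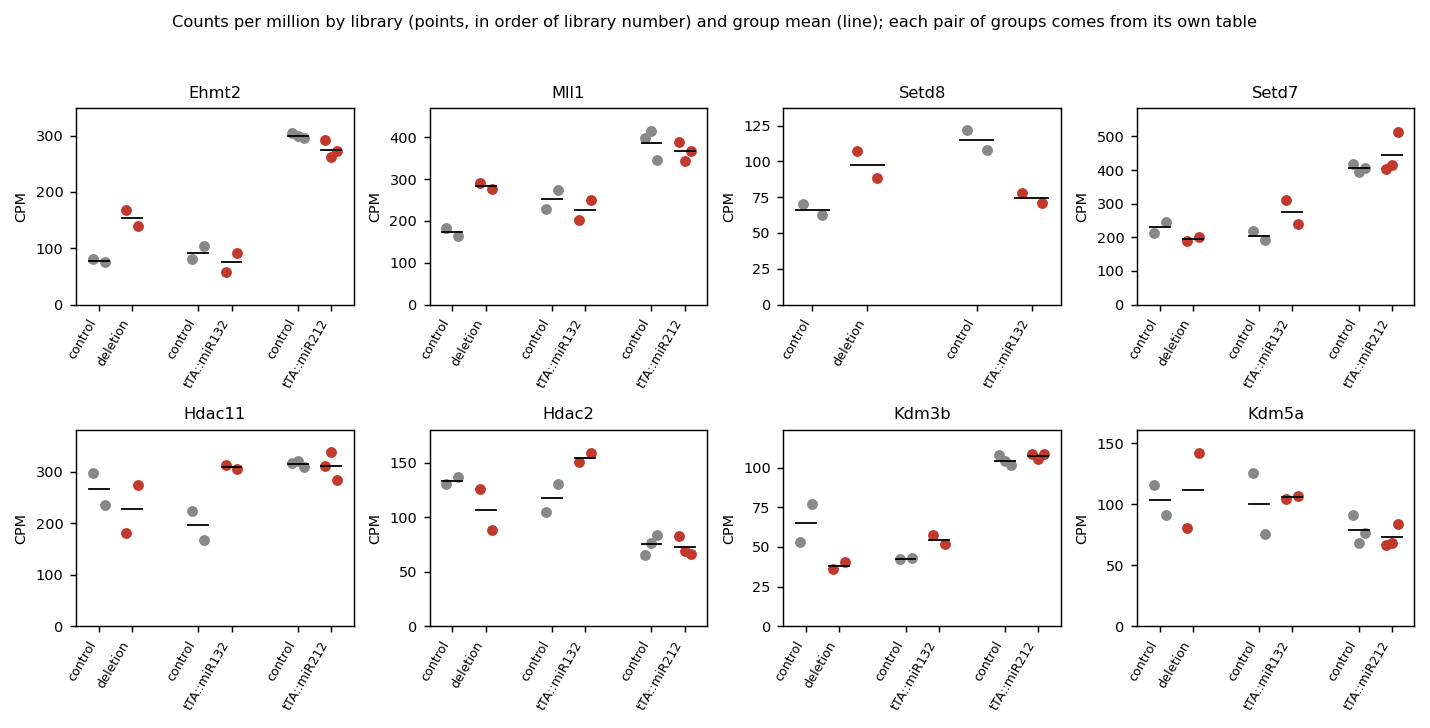
CPM of 8 enzyme genes in every library (points, in order of library number) with the group mean (line); each pair of groups comes from its own table and levels are not comparable across tables. Ehmt2 and Mll1 stand above their controls in the deletion, Hdac11 and Hdac2 in tTA::miR132, Setd8 and Kdm3b differ from their controls in opposite directions in these 2 lines, and Kdm5a overlaps its controls in all 3.

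The comparison of tTA::miR212 with its controls had 3 libraries per group and far closer replicates: the biological coefficient of variation was 8.58% against 74.2% in the deletion table and 60.7% in that of tTA::miR132. None of the 28 enzyme genes passed edgeR's test at an adjusted p under 0.05, nor did any of the 4618 genes (0%). None was under an unadjusted p of 0.05 either, where the background was 5.63%, and DESeq2 and limma-voom also gave 0 on both counts. Of the 28, 0 have a q-value under 0.05 in the authors' deposited table, against a background of 0.0598% of its 11706 transcripts. Log2 fold changes ran from -0.25 to 0.18 with a median of -0.0026, and 14 of 28 lay above 0. With SEs of 0.08 to 0.19, differences of the size of Ehmt2 in the deletion or Hdac11 in tTA::miR132 were not seen here for any enzyme gene.

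Only Mll5, a SET domain protein of the Mll group, lay above all 3 controls in all 3 libraries (1 of 28, 3.57%, background 6.47%). It had 203, 203 and 190 CPM against 180, 181 and 176, and a log2 fold change of 0.14 (SE 0.09; adjusted p = 0.913 by edgeR). Ehmt2 and Prmt8 lay below all controls (2 of 28, 7.14%, background 4.96%), and Kdm4a with them when TMM library sizes were used. Ehmt2 had 292, 262 and 272 CPM against 305, 299 and 296, a log2 fold change of -0.13 (SE 0.08; adjusted p = 0.908 by edgeR). Prmt8 had 107, 104 and 109 CPM against 110, 112 and 125.

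The smallest p belonged to Kdm4a, a demethylase of H3K9 and H3K36, with 79.0, 80.9 and 92.3 CPM against 94.2, 112 and 91.7. Transgenic library 3 overlaps the controls, and the log2 fold change was -0.25 (SE 0.13) with an unadjusted p of 0.0659 and an adjusted p of 0.901 by edgeR, or -0.15 without control library 2. Mll3 followed with 195, 202 and 209 CPM against 177, 198 and 155 and a log2 fold change of 0.18 (SE 0.10; adjusted p = 0.901 by edgeR), with overlap at control library 2; it was 0.10 without control library 3. The Kdm5 demethylases did not move as a block: Kdm5c gave -0.18 (SE 0.13; adjusted p = 0.914 by edgeR) and Kdm5a -0.12 (SE 0.14; adjusted p = 0.949). Leaving out 1 library in turn moved Kdm5c between -0.28 and -0.082 and Kdm5a between -0.23 and -0.0047. Kdm5b had 111, 109 and 123 CPM against 112, 101 and 98.5, and all 3 genes overlap their controls. Setd7 had 404, 416 and 514 CPM against 418, 395 and 407, so its log2 fold change of 0.12 (SE 0.09; adjusted p = 0.929 by edgeR) rests on transgenic library 3 and was -0.00071 without it. Kdm2a, an H3K36 demethylase, had 143, 160 and 155 CPM against 145, 130 and 140 (log2 fold change 0.13, SE 0.10; adjusted p = 0.931 by edgeR). Kdm4b, of the same family as Kdm4a, had 106, 103 and 112 against 127, 118 and 106 (log2 fold change -0.14, SE 0.11; adjusted p = 0.931 by edgeR), or -0.080 without control library 1. Both overlap their controls.

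Set side by side, the deletion and tTA::miR132 had log2 fold changes of opposite sign for 27 of the 43 enzyme genes measured in both (62.8%, against 50.5% of all 9980 genes). Of the 43, 6 genes lay wholly apart from their controls in opposite directions (14.0%, against 5.55% of all genes). Setd8 was higher in the deletion and lower in tTA::miR132, with log2 fold changes of 0.59 and -0.67. Hdac2 (-0.29 and 0.35), Kdm3b (-0.75 and 0.32), Prmt5 (-0.33 and 0.70), Setd6 (-0.91 and 0.75) and Setd7 (-0.21 and 0.38) were lower in the deletion and higher in tTA::miR132. Prmt6 was higher in both and Setd1a lower in both, which makes 2 of the 43 apart in the same direction, against 5.25% of all genes. These genes were picked out after their values were seen, and with TMM library sizes Hdac2 and Prmt5 overlap their controls in the deletion. Between the deletion and tTA::miR212, 2 of the 24 enzyme genes in both lay apart in opposite directions, Ehmt2 and Prmt8 (8.33%, against 1.745% of all genes). The differences between the lines were not tested, as each table was normalized on its own. Setd6, a methyltransferase of the NF-kappaB subunit RelA, had 11.7 and 13.3 CPM in the deletion against 22.7 and 24.9, and 27.0 and 28.8 in tTA::miR132 against 20.6 and 11.7.

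**Figure D4:**
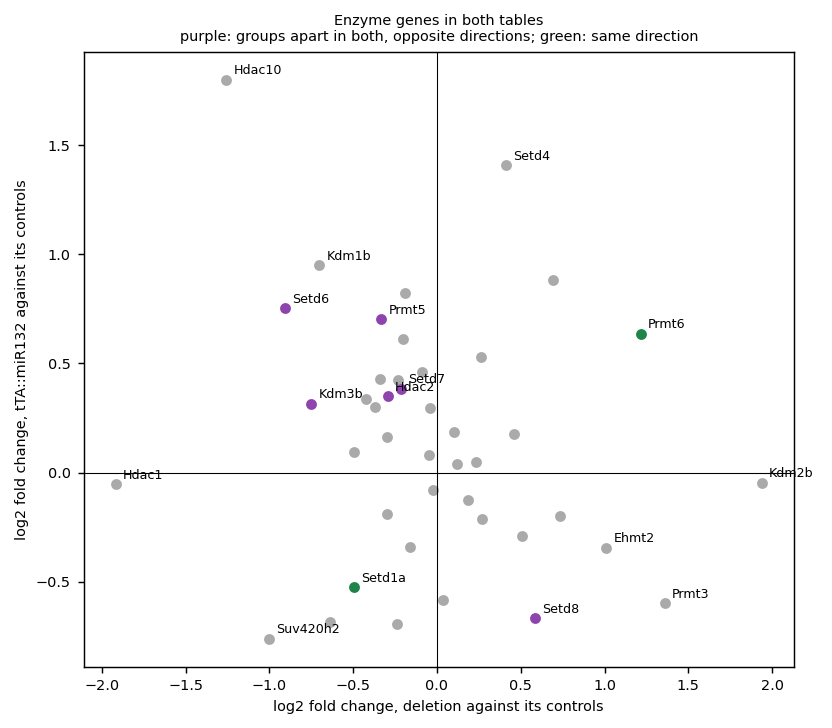
Log2 fold change in the deletion (horizontal axis) and in tTA::miR132 (vertical axis) of the 43 enzyme genes measured in both. Purple points are the 6 genes apart from their controls in opposite directions (5.55% of all genes are so). Green points are the 2 apart in the same direction, Prmt6 and Setd1a (5.25% of all genes are so).

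The enzyme genes were also divided by the seed match shown above, which the choice of members did not use. In the deletion the 8 measured genes with a match had a median log2 fold change of 0.08, with 5 above 0, and the 36 without one had -0.17, with 13 above 0. In tTA::miR132 the 8 with a match had a median of 0.17 with 7 above 0, and the 35 without 0.09 with 19 above 0. In tTA::miR212 the medians were 0.05 (5 of 8 above 0) and -0.02 (9 of 20). Over all genes the medians with and without a match were -0.037 and -0.026 in the deletion, -0.012 and 0.0014 in tTA::miR132 and 0.018 and 0.0012 in tTA::miR212. Of all genes with a match, 47.3%, 48.9% and 55.4% lay above 0 in these lines, against 48.05%, 50.12% and 50.51% of those without. Genes with a match thus had the higher median among the enzymes in each line, but the lower one over all genes in the deletion and tTA::miR132. The groups of genes were not tested against each other.

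Of 85 other chromatin genes listed for comparison (acetyltransferases, sirtuins, Polycomb and further SET, chromodomain and corepressor genes), 74, 73 and 46 were tested in the deletion, tTA::miR132 and tTA::miR212. EdgeR called 0 in each, with 0, 1 and 2 at an unadjusted p under 0.05 (0%, 1.37% and 4.35%, against the 0.839%, 2.82% and 5.63% of all genes). In the deletion their median log2 fold change was -0.18, and 9 lay wholly above (12.2%, background 14.3%) and 17 wholly below their controls (23%, background 18%). In tTA::miR132 the median was -0.10, with 13 above (17.8%, background 18.8%) and 12 below (16.4%, background 14.3%). In tTA::miR212 it was -0.02, with 5 above (10.9%, background 6.47%) and 4 below (8.7%, background 4.96%).

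Smyd3, a methyltransferase, had 10 and 121 counts in the deletion against 298 and 344, below both controls, with a log2 fold change of -2.45 (SE 1.29; adjusted p = 0.999 by edgeR). Suz12, a Polycomb subunit, had 158 and 89.4 CPM against 78.3 and 74.0, above both controls, with 0.74 (SE 0.40; adjusted p = 0.999 by edgeR). In tTA::miR132 the demethylase-like Jmjd1c had 147 and 108 CPM against 73.9 and 26.5, a log2 fold change of 1.31 (SE 0.47; adjusted p = 0.997 by edgeR), with no overlap. The methyltransferase Ash1l had 166 and 253 CPM against 274 and 292, a log2 fold change of -0.48 (SE 0.25; adjusted p = 0.997 by edgeR), below both controls. In tTA::miR212 the remodeler Chd3 had a log2 fold change of 0.20 (SE 0.06; adjusted p = 0.714 by edgeR) and the corepressor subunit Tbl1x 0.35 (SE 0.12; adjusted p = 0.801 by edgeR), both above all controls. The acetyltransferase Ep300, a reported miR-132 target, gave 0.09, 0.42 and 0.10 in the 3 lines.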

How the data were processed

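The deposited tables hold raw read counts, whole numbers per RefSeq gene (deletion, tTA::miR132) or Ensembl transcript (tTA::miR212), per the file headers and values. Per the series' design text, reads were aligned to mm9 with Bowtie 0.12.7 and custom R scripts, and abundances came from Cufflinks 1.2. The sources used here do not name the counting tool, its use of strand, the annotation or the gene filter, so reads of overlapping genes may not have been separated. The authors' q-values, deposited in the same tables, were only counted, and 14 normalized per-library columns were not used.

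CPM is a gene's count per 1000000 counts of its library in the rows used. For tTA::miR212 the transcript row with the highest mean count per symbol was kept. A single repeated header line was dropped. Each table was fitted whole with edgeR 4.0.16 (R 4.3.3, quasi-likelihood test, TMM, filterByExpr, Benjamini-Hochberg threshold 0.05). The procedure was also run on simulated data, whose planted differences were larger than any enzyme log2 fold change of the main fits. That run therefore cannot show whether differences of the size seen here would be called. DESeq2 1.42.0 and limma 3.58.1 (voom) were alternatives, beside other size factors, no filter, a replicate block, all transcript rows and leaving out each library. Counts come from amplified reads, so counting error understates the error.

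For tTA::miR212, lengths were those of each row's own transcript in GENCODE vM1 (27 of 28 genes, with Ehmt2 unmatched). For the deletion and tTA::miR132 they came from that symbol's transcript with the nearest span (44 of 44 and 43 of 43 genes). Its start and end were off by 1217 bases in sum for Prmt7 and 744 for Prmt8. A near span does not fix the exons. The deletion's matched lengths were 930 bases for Prmt1 and 1432 for Hdac3, against 2147 and 2004 for tTA::miR212. Levels per kilobase depend on that choice. The microRNA genes are in no table, so the targeted genes were not checked. Fold changes with SE and adjusted p are given for the 8 enzyme genes with the smallest p per comparison and Kdm5a, and for other chromatin genes by the 2 smallest p, with Ep300 as a fold change only; another gene of that rule is not reported here. Members and lists were chosen with earlier results of these data known.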

Additional observations from a re-analysis of the deposited data

Results flagged for a closer look

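In 8 enzyme genes every library of one line lay on one side of its controls and every library of another line on the other side: 6 of 43 for the deletion and tTA::miR132 (14.0%, against 5.55% of all genes) and 2 of 24 for the deletion and tTA::miR212 (8.33%, against 1.745%). None of these differences was tested, as each line was measured in its own table. Between the deletion and tTA::miR132 the difference in log2 fold change (deletion minus tTA::miR132) was 1.26 for Setd8, the H4K20 methyltransferase, which was higher in the deletion. It was -0.64 for Hdac2, -1.07 for Kdm3b, -1.04 for Prmt5, -1.66 for Setd6 and -0.60 for Setd7, which were lower in the deletion. With TMM library sizes Hdac2 and Prmt5 overlap their controls in the deletion. Between the deletion and tTA::miR212 the difference was 1.15 for Ehmt2 and 0.39 for Prmt8, both higher in the deletion.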

How the results depend on the processing

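Over the enzyme genes, no alternative to edgeR's test gave a call with all libraries in. Over all genes, DESeq2 called 5 in the deletion and 39 in tTA::miR132 where edgeR called 0, and limma-voom called 2 in tTA::miR132. With the replicate block, the number in the column names, calls over all genes were 0 in the deletion, 1 in tTA::miR132 and 1 in tTA::miR212, and the enzyme medians were -0.13, 0.19 and -0.01. The labels do not say that equal numbers mark pairs, so the main fit used no block. Correlations of deviations between libraries of equal number were 0.01, 0.01 and -0.08 to 0.02. With 2 libraries per group this is a single value per table, which cannot show that pairing is absent.

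Leaving out 1 library in turn, with a lone sample assumed to vary like the others, gave 1 to 4527 calls over all genes in the deletion, 0 to 111 in tTA::miR132 and 0 to 18 in tTA::miR212. Enzyme calls in the deletion ran from 0 to 12; the 12, without deletion library 2, set library 1 alone against the controls (Ehmt2, Hdac1, Hdac10, Kdm2b, Kdm6b, Mll1, Mll2, Prmt3, Prmt6, Setd2, Suv39h2 and Suv420h2). Without deletion library 1 there were 8 calls over all genes and 0 among the enzymes; 111 came without control library 1 and 18 without transgenic library 1. The enzyme median ran from -0.14 to -0.015 in the deletion, 0.034 to 0.20 in tTA::miR132 and -0.040 to 0.024 in tTA::miR212. Signs reversed for Prmt3 (-0.50 to 2.15) and Kdm5a (-0.29 to 0.45) in the deletion, Suv420h1 (-1.11 to 0.27) and Kdm5a (-0.26 to 0.42) in tTA::miR132 and Setd7 (-0.00071 to 0.18) in tTA::miR212. Choosing genes by prefix alone, which adds the Mllt genes, moved the tTA::miR132 median to 0.079. The cause of these changes was not tested.

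Other size factors, no filter on low counts and, for tTA::miR212, all transcript rows changed no direction or call of a named gene and moved no enzyme median beyond the spread between libraries. Choosing the row with the longest span was not run, since all rows of a symbol share 1 span (4618 of 4618 symbols). With 2 libraries per group the spread between libraries, and for tTA::miR212 the 138.5 to 166 counts of the median enzyme gene, limit the precision.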
